A study of Mus musculus with 14 samples.

Results

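Direct targets of Wnt signaling are the genes that β-catenin switches on together with TCF/LEF transcription factors, and 10 of them were followed here in mouse embryonic stem cells (ESCs). The 10 genes, Axin2, Sp5, Notum, Apcdd1, Tnfrsf19, Nkd1, Lef1, Rnf43, Dkk1 and Lgr5, were taken by symbol from a table of 41204 genes. Of these, 9 were among the 15430 genes with a mean above 0.2 FPKM (fragments scaled to the length of the transcript and to the size of the library) that were tested. Lgr5 did not reach this mean.

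Poly(A) RNA was sequenced from wild-type ESCs and from ESCs lacking Trincr1, a long noncoding RNA that binds TRIM71, in 2 media, with 2 samples for each of the 4 groups. The cells carry a C57BL/6(F) x 129/sv(M) background. Both media were N2B27 on gelatin with the MEK inhibitor PD0325901 at 1.0 μM and LIF, a cytokine that sustains self-renewal, at 1000 units per ml. The 2i+LIF groups also received the GSK3 inhibitor CHIR99021 at 3.0 μM, and the PD+LIF groups spent 24 h in 2i+LIF and then 4 days without CHIR99021. Trincr1-/- ESCs were made with a pair of guide RNAs on either side of exons 2 to 4, and the labels do not say which clone was sequenced. The loss of Trincr1 and other differences between a knockout clone and the wild-type line cannot be told apart. The labels call the samples biological replicates without saying whether they came from separate cultures, so p-values measure the spread between these samples, which may be technical. The withdrawal of CHIR99021 and the days after the change of medium cannot be told apart, and in bulk RNA fewer cells of a type and less RNA per cell cannot be told apart.

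Without a Wnt signal, a destruction complex of Axin, APC and the kinases CK1 and GSK3 marks β-catenin for degradation. A Wnt ligand bound to Frizzled and LRP5 or LRP6, or a drug that blocks GSK3, stops this, and β-catenin enters the nucleus and turns TCF/LEF proteins from repressors into activators. Many direct targets are themselves brakes on the pathway, and in ESCs the relief of repression by Tcf7l1 (also called TCF3) is known to sustain naive pluripotency genes such as Esrrb and Nanog.

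Trincr1, listed as Gm2694, served as the check of the genotype labels. It was at 5.70 and 9.45 FPKM in the wild-type samples in 2i+LIF and at 6.18 and 6.56 in PD+LIF, against 0.0754 and 0 in Trincr1-/- ESCs in 2i+LIF and 1.38 and 0.746 in PD+LIF. Each Trincr1-/- sample was below every wild-type sample. The difference of log2(FPKM + 1) was -3.01 in 2i+LIF (limma adjusted p = 0.00317) and -1.85 in PD+LIF (limma adjusted p = 0.00535). In Trincr1-/- ESCs the remaining signal was higher in PD+LIF than in 2i+LIF (0.98, limma adjusted p = 0.0105). It stood at 16.7% of the wild-type mean in PD+LIF. Libraries held an estimated 10.3 to 14.0 M fragments, from the spacing of low FPKM values. Of the ESC markers, 8 of 8 reached 1 FPKM, and their sum was 1889 to 1908 FPKM in 2i+LIF, 1245 to 1249 in wild-type ESCs in PD+LIF and 1056 to 1069 in Trincr1-/- ESCs in PD+LIF. Over the same groups, 5 primed epiblast markers summed to 44.0 to 49.6, 171 to 194 and 290 to 315 FPKM. Between genotypes in PD+LIF, 2 of these 5 were called higher without Trincr1, and 3 were not called. The 2 were Dnmt3b (72.4 FPKM in the wild type and 129 without Trincr1) and Krt18 (63.2 and 115 FPKM). Not every ESC marker followed the sum of the 8. In wild-type ESCs, Sox2 was called higher in PD+LIF (146 to 179 FPKM). Between genotypes in PD+LIF, 4 of the 8 were called lower without Trincr1 and 4 were not called. Among the latter, Klf4 (29.4 and 34.3 FPKM) and Tdgf1 (132 and 141 FPKM) had higher means without Trincr1. The part of these shifts in the results for the Wnt targets was not tested.

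**Figure D1:**
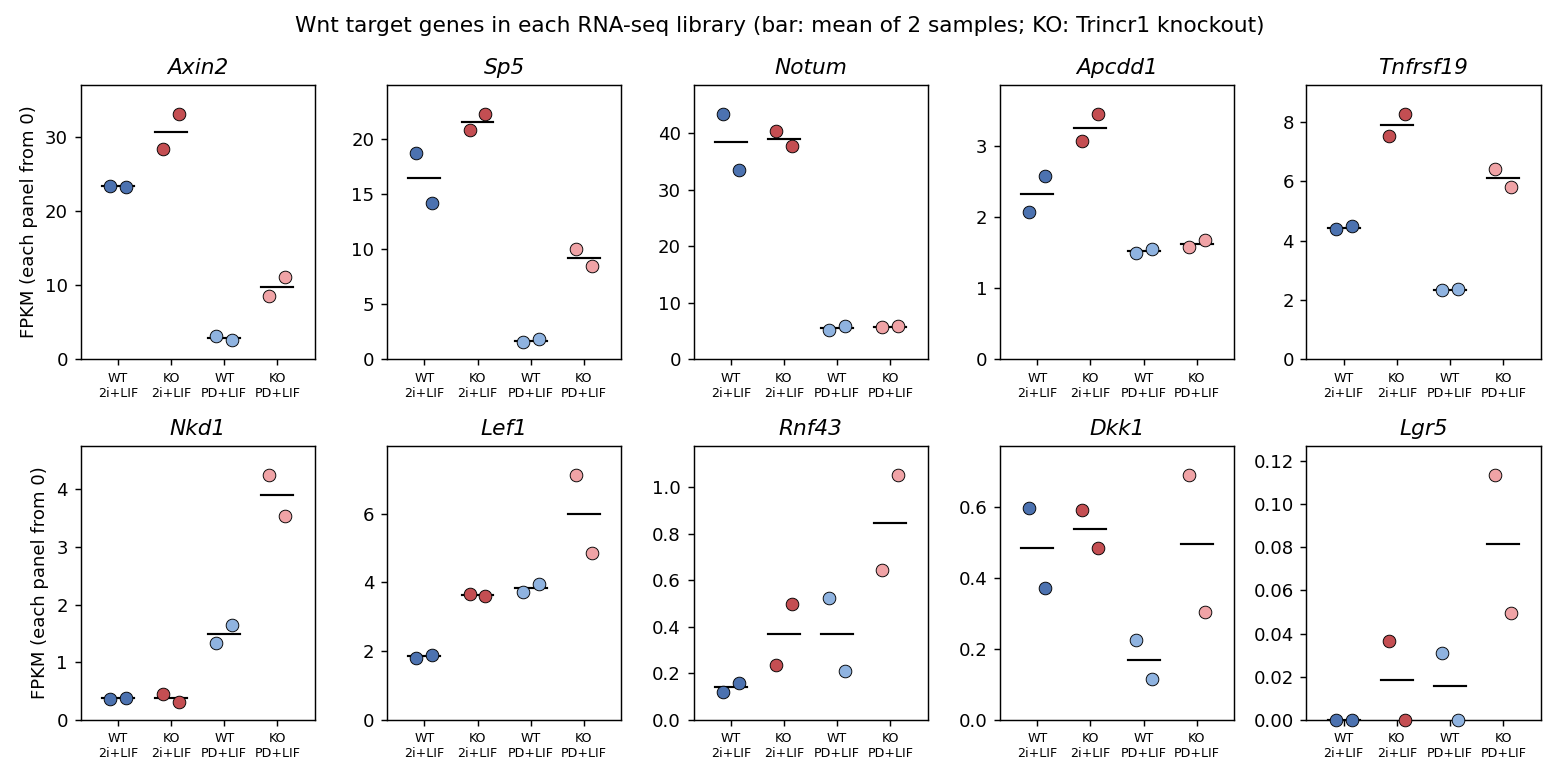
FPKM of the 10 Wnt target genes in each of the 8 samples, each panel with its own linear axis from 0, with a bar at the mean of the 2 samples of a group. Axin2, Sp5 and Notum are far lower in PD+LIF than in 2i+LIF, Nkd1 and Lef1 are highest in Trincr1-/- ESCs in PD+LIF, and Rnf43, Dkk1 and Lgr5 stay at or under 1.05 FPKM.

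In wild-type ESCs the largest differences between the media were those of Sp5, Axin2 and Notum, which were the most abundant of the 10 genes in 2i+LIF. In Trincr1-/- ESCs the largest were a fall of Notum (-2.57 on the log2(FPKM + 1) scale) and a rise of Nkd1 (1.83), a gene of low level. Sequence upstream of start sites was read from RefSeq (GRCm38.p6) to see whether the core letters bound by TCF/LEF factors lie there. The letters searched were CTTTG followed by either AA or AT, or by either TA or TT, on both strands. Windows ran from 250 bases before to 50 bases after a start site. For each Wnt target only 1 window was used, that of the start site closest to the listed start of the gene. Lef1 had 4 windows and Rnf43 and Tnfrsf19 had 2 each, and matches in their other windows were not counted for these genes. Of the 7 Wnt targets with a window that was searched, 2 held a match, Sp5 and Dkk1, with 2 matches each. Of all 32851 windows, 16.9% held at least 1 match and 1.94% held 2 or more. Notum and Lgr5 had no window in the table, and Apcdd1 was not searched. Counted from the start site, the matches in Sp5 begin at -222 with AACAAAG, a match on the other strand, and at -104 with CTTTGAT. In Dkk1 they begin at -117 with CTTTGAA and at -98 with CTTTGTT. The 250 bases upstream of Sp5 (chr2:70474673-70474922, plus strand), Dkk1 (chr19:30549497-30549746, minus strand) and Axin2 (chr11:108920099-108920348, plus strand) are shown 5′ to 3′, with matches in capitals, since Sp5 and Axin2 were called in the same comparisons while only Sp5 of the pair held the letters, and Dkk1 held them at a low level of RNA.
Sp5: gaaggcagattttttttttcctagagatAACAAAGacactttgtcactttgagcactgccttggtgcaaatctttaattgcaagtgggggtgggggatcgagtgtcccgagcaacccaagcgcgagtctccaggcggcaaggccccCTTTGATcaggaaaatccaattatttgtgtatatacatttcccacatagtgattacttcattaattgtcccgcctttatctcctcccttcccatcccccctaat
Dkk1: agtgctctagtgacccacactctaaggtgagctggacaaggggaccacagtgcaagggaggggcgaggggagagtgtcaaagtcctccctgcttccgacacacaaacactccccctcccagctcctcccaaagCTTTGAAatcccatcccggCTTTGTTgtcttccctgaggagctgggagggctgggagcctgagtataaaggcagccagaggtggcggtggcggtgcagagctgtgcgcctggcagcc
Axin2: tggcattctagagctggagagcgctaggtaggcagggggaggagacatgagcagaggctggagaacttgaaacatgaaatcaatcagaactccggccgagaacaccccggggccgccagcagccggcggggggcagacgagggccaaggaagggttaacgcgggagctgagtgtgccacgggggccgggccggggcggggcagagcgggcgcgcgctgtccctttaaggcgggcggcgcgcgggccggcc
A match is a description of these letters and not a binding site. In the windows used for Nkd1, Lef1, Rnf43 and Tnfrsf19 and in that of Axin2 no match was found.

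After withdrawal of CHIR99021, 5 of the 9 Wnt targets tested were lower and 2 higher in wild-type ESCs. Over all genes tested, 21.3% were lower and 30.9% higher in the same comparison. Axin2, Sp5 and Notum fell to between 10.1% and 14.2% of their level in 2i+LIF, while Nkd1 and Lef1 rose. The median difference of log2(FPKM + 1), PD+LIF minus 2i+LIF, was -0.40 over the 9 targets and 0.08 over all genes tested. In Trincr1-/- ESCs the counts were again 5 lower and 2 higher, beside 20.3% of all genes lower and 29.6% higher, with medians of -0.32 and 0.07. After quantile normalization, which moved the median of all genes by 0.0992 in wild-type and 0.106 in Trincr1-/- ESCs on the log2 scale, the share of higher calls among all calls went from 59.2% to 49.1% and from 59.3% to 48.2%, and no Wnt target that was called changed direction.

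Axin2 encodes a scaffold of the destruction complex and is the classical feedback target of the pathway. It was at 23.3 and 23.2 FPKM in wild-type ESCs in 2i+LIF and at 3.12 and 2.60 in PD+LIF. Without Trincr1 it was at 28.3 and 33.0 FPKM in 2i+LIF and at 8.51 and 11.01 in PD+LIF. All 4 samples in PD+LIF were below all 4 in 2i+LIF, and within each medium both Trincr1-/- samples were above both wild-type samples. The difference of log2(FPKM + 1) between media was -2.66 in wild-type ESCs (standard error 0.13, limma adjusted p = 1.16e-05) and -1.56 in Trincr1-/- ESCs (standard error 0.13, limma adjusted p = 8.69e-05).

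Sp5, a zinc finger transcription factor, also fell in both genotypes. It was at 18.8 and 14.2 FPKM in wild-type ESCs in 2i+LIF and at 1.51 and 1.81 in PD+LIF. Its level in Trincr1-/- ESCs was 20.8 and 22.2 FPKM in 2i+LIF and 10.01 and 8.43 in PD+LIF. The groups did not overlap in either medium. Between media, log2(FPKM + 1) differed by -2.71 in wild-type ESCs (standard error 0.14, limma adjusted p = 1.52e-05) and by -1.14 in Trincr1-/- ESCs (standard error 0.14, limma adjusted p = 0.000567).

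Notum encodes a secreted enzyme that removes the lipid from Wnt ligands and so inactivates them. It was the most abundant of the 10 genes, with 43.4 and 33.5 FPKM in the wild-type samples and 40.4 and 37.8 FPKM in the Trincr1-/- samples in 2i+LIF. In PD+LIF the wild-type samples had 5.11 and 5.81 FPKM and the Trincr1-/- samples 5.68 and 5.77. The genotypes overlapped in both media, whereas the media were far apart. The difference of log2(FPKM + 1) between media was -2.60 in wild-type ESCs (limma adjusted p = 9.95e-06) and -2.57 in Trincr1-/- ESCs (limma adjusted p = 7.3e-06).

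Apcdd1, a membrane protein that holds back Wnt signaling at the cell surface, and Tnfrsf19 (TROY), a receptor of the TNF receptor family, fell by less. Apcdd1 was at 2.08 and 2.58 FPKM in wild-type ESCs in 2i+LIF and 1.49 and 1.55 in PD+LIF, and at 3.07 and 3.45 against 1.58 and 1.67 in Trincr1-/- ESCs. Its samples in PD+LIF were below all samples in 2i+LIF. The difference was -0.40 on the log2(FPKM + 1) scale in wild-type ESCs (limma adjusted p = 0.0299) and -0.70 in Trincr1-/- ESCs (limma adjusted p = 0.00284). The call in wild-type ESCs was lost without replicate 2 in 2i+LIF (limma adjusted p = 0.148) and without replicate 1 (0.0994) or 2 (0.0813) in PD+LIF.

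Tnfrsf19 was at 4.38 and 4.48 FPKM in wild-type ESCs in 2i+LIF and at 2.33 and 2.36 in PD+LIF. The knockout had 7.55 and 8.27 FPKM in 2i+LIF and 6.43 and 5.82 in PD+LIF. The 4 Trincr1-/- samples were above the 4 wild-type samples whatever the medium. The medium changed log2(FPKM + 1) by -0.70 in wild-type ESCs (limma adjusted p = 0.000881) and by -0.32 in Trincr1-/- ESCs (limma adjusted p = 0.0284). The call in Trincr1-/- ESCs was lost without their replicate 2 in 2i+LIF (limma adjusted p = 0.128) or in PD+LIF (limma adjusted p = 0.134).

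Nkd1 and Lef1 went the other way. Nkd1, which binds Dishevelled and dampens the pathway, was at 0.361 and 0.382 FPKM in wild-type ESCs in 2i+LIF and 1.33 and 1.64 in PD+LIF. The knockout samples were at 0.439 and 0.309 FPKM in 2i+LIF and 4.25 and 3.54 in PD+LIF. The genotypes overlapped in 2i+LIF and were apart in PD+LIF. Nkd1 was 4.00 fold higher in PD+LIF in wild-type ESCs (difference of log2(FPKM + 1) 0.86, limma adjusted p = 0.00149) and 10.4 fold higher in Trincr1-/- ESCs (1.83, limma adjusted p = 4.43e-05).

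Lef1, one of the TCF/LEF factors, was at 1.81 and 1.90 FPKM in wild-type ESCs in 2i+LIF and 3.71 and 3.94 in PD+LIF. The Trincr1-/- samples were at 3.67 and 3.60 FPKM in 2i+LIF and 7.12 and 4.85 in PD+LIF. Its lowest group was wild-type ESCs in 2i+LIF and its highest Trincr1-/- ESCs in PD+LIF, whose 2 samples lay well apart. The difference of log2(FPKM + 1) between media was 0.76 in wild-type (limma adjusted p = 0.00559) and 0.57 in Trincr1-/- ESCs (limma adjusted p = 0.0196). The latter call was lost without Trincr1-/- replicate 1 (limma adjusted p = 0.0694) or 2 (0.0782) in 2i+LIF or replicate 1 in PD+LIF (0.0833), and after quantile normalization.

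The last 3 targets were near the limit of detection. Rnf43, a ubiquitin ligase that removes Frizzled from the cell surface, was at 0.119 and 0.159 FPKM in wild-type ESCs in 2i+LIF and 0.524 and 0.211 in PD+LIF, and at 0.235 and 0.498 against 0.642 and 1.05 in Trincr1-/- ESCs. The samples in PD+LIF were above those in 2i+LIF in each genotype, but neither difference of log2(FPKM + 1) passed the test (0.25, limma adjusted p = 0.271, and 0.43, limma adjusted p = 0.0819). Dkk1, a secreted blocker of LRP5 and LRP6, was at 0.597 and 0.373 FPKM in wild-type ESCs in 2i+LIF and 0.225 and 0.115 in PD+LIF. Without Trincr1 it was at 0.592 and 0.485 FPKM in 2i+LIF and 0.692 and 0.303 in PD+LIF. These values stand for an estimated 3.0 to 18 fragments of Dkk1 in a library, and neither difference between media passed the test (-0.34, limma adjusted p = 0.12, in wild-type and -0.05, limma adjusted p = 0.828, in Trincr1-/- ESCs).

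Lgr5, a receptor for R-spondins and a marker of Wnt-dependent adult stem cells, was at or near 0. It was listed at 0 in both wild-type samples in 2i+LIF, at 0.0365 and 0 FPKM in Trincr1-/- ESCs in 2i+LIF, at 0.0310 and 0 in wild-type ESCs in PD+LIF and at 0.113 and 0.0497 in Trincr1-/- ESCs in PD+LIF. The highest of these values stands for an estimated 6.1 fragments, so differences between groups were not detectable at this depth.

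**Figure D2:**
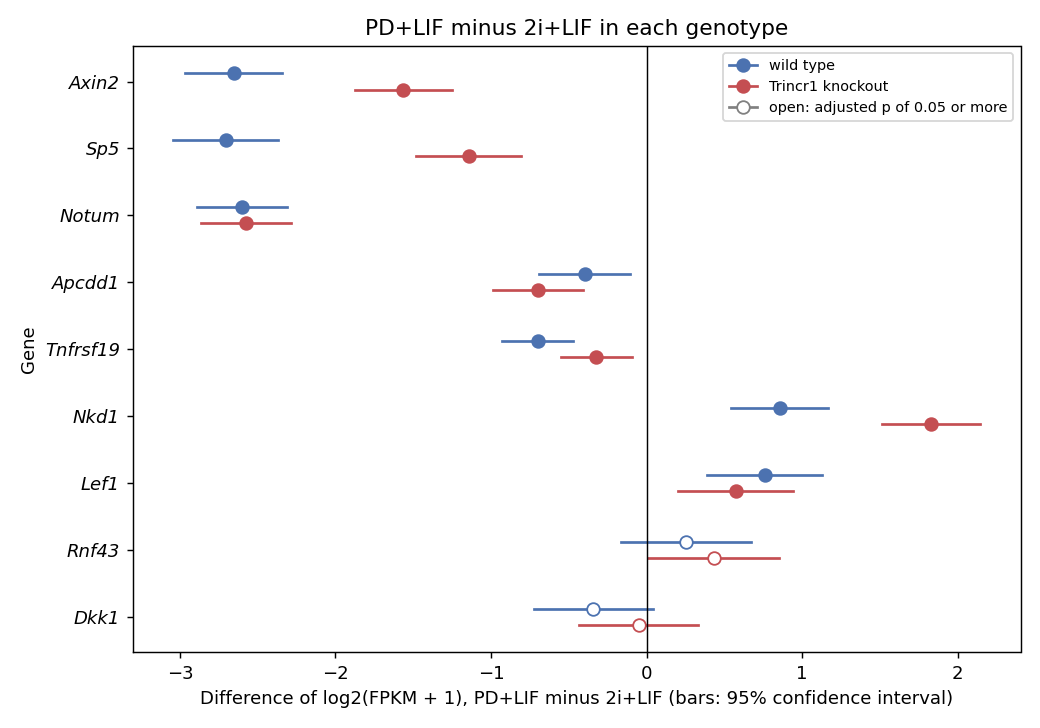
Difference of log2(FPKM + 1) between PD+LIF and 2i+LIF for the 9 Wnt targets tested, in wild-type and Trincr1-/- ESCs, with 95% confidence intervals from limma and open points where the adjusted p-value was 0.05 or more. Axin2 and Sp5 fell by more in wild-type (-2.66 and -2.71) than in Trincr1-/- ESCs (-1.56 and -1.14), Notum fell in both (-2.60 and -2.57), and Nkd1 and Lef1 lie to the right of 0.

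For the pathway analysis of Trincr1-/- against wild-type ESCs in PD+LIF, the study took genes whose average reached 1 FPKM and that differed by more than 2 fold. The same rule, with means under 0.1 FPKM set to 0.1, was applied here to each comparison beside the test. By this rule 3 targets were lower in PD+LIF in wild-type ESCs (Axin2, Notum and Sp5), beside 4.36% of all genes tested, and 1 was higher (Lef1), beside 10.7%. In Trincr1-/- ESCs the same 3 and Apcdd1 were lower, beside 4.7% of all genes, and 1 was higher (Nkd1), beside 10.9%. The rule uses no estimate of error.

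Between genotypes in 2i+LIF, 1 of the 9 Wnt targets, Tnfrsf19, was higher in Trincr1-/- ESCs and none was lower, beside 0.35% of all genes higher and 0.855% lower. Tnfrsf19 was 1.78 fold higher, a difference of log2(FPKM + 1) of 0.71 (95% confidence interval 0.48 to 0.94, limma adjusted p = 0.0221). Its call was lost when any 1 of the 8 samples was left out (limma adjusted p between 0.0523 and 0.146), including samples in PD+LIF that leave the difference itself at 0.71. Including Tnfrsf19, 6 of the 9 targets had both Trincr1-/- samples above both wild-type samples, beside 22% of all genes tested. The other 5, Axin2, Sp5, Apcdd1, Lef1 and Rnf43, did not pass the test. Their differences were 0.38 (limma adjusted p = 0.248), 0.38 (0.287), 0.36 (0.244), 0.70 (0.106) and 0.26 (0.581). For Nkd1, with a difference of 0.00, the 95% confidence interval ran from -0.31 to 0.32, and for Notum, at 0.03, from -0.25 to 0.32.

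In PD+LIF, 4 of the 9 Wnt targets were higher without Trincr1 and none was lower. Over all genes tested, 6.29% were higher and 5.77% lower. The 4 genes were Sp5, Axin2, Tnfrsf19 and Nkd1, and the same 4 passed the rule of a ratio above 2, which 1.45% of all genes passed in this direction. The median difference of log2(FPKM + 1) was 0.51 over the 9 targets and 0.01 over all genes tested.

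Sp5 differed most, by 5.56 fold, or 1.94 on the log2(FPKM + 1) scale (95% confidence interval 1.60 to 2.28, limma adjusted p = 0.0017). The lower of its Trincr1-/- samples in PD+LIF, at 8.43 FPKM, was above the higher wild-type sample, at 1.81 FPKM, and below each sample in 2i+LIF. Axin2 was 3.41 fold higher, Nkd1 2.62 fold and Tnfrsf19 2.61 fold. The intervals of their differences on the log2(FPKM + 1) scale were 1.16 to 1.78, 0.66 to 1.29 and 0.86 to 1.32, and these 3 intervals overlap where that of Sp5 overlaps only the interval of Axin2. Without Trincr1-/- replicate 1 in PD+LIF, the call of Nkd1 was lost (0.87, limma adjusted p = 0.0557).

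Among the remaining 5 targets tested, Lef1 had 1.56 times the wild-type level in Trincr1-/- ESCs in PD+LIF without passing the test (0.51, limma adjusted p = 0.0788), and passed it without Trincr1-/- replicate 2 (0.75, limma adjusted p = 0.0368). Rnf43 and Dkk1 had ratios of 2.31 and 2.92 at levels under 1.1 FPKM, and their differences did not pass the test (0.43, limma adjusted p = 0.163, and 0.35, limma adjusted p = 0.218). Notum and Apcdd1 differed by 0.06 each, with 95% confidence intervals of -0.23 to 0.35 in both. These intervals exclude a difference of the size seen for Axin2 or Sp5 in the same samples.

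**Figure D3:**
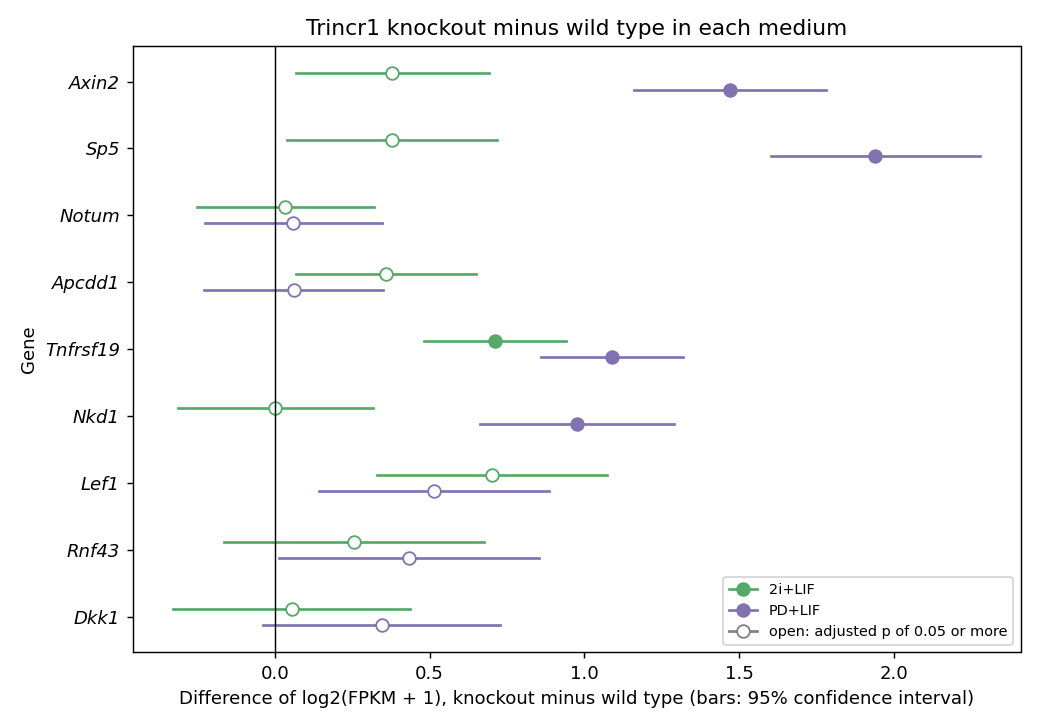
Difference of log2(FPKM + 1) between Trincr1-/- and wild-type ESCs for the 9 Wnt targets tested, in 2i+LIF and in PD+LIF, with 95% confidence intervals from limma and open points where the adjusted p-value was 0.05 or more. In PD+LIF the points of Sp5 (1.94), Axin2 (1.47), Tnfrsf19 (1.09) and Nkd1 (0.98) are filled, whereas Notum and Apcdd1 lie at 0.06.

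Whether the genotype effect differed between media was tested directly, which is the same as whether the medium effect differed between genotypes. It did for 2 of the 9 targets, Sp5 and Axin2, both with a larger effect of genotype in PD+LIF, beside 0.992% of all genes in this direction. The difference of differences was 1.56 for Sp5 (95% confidence interval 1.08 to 2.04, limma adjusted p = 0.0272) and 1.09 for Axin2 (0.65 to 1.53, limma adjusted p = 0.0409). Nkd1 was close to the threshold at 0.98 (limma adjusted p = 0.0561). The values for Tnfrsf19 (0.38), Dkk1 (0.29), Rnf43 (0.18), Notum (0.03), Lef1 (-0.19) and Apcdd1 (-0.30) did not pass the test. The calls are fragile. That of Axin2 was lost whichever of the 8 samples was left out (limma adjusted p between 0.0866 and 0.141), and that of Sp5 in 7 of 8 cases (between 0.0592 and 0.108), the exception being wild-type replicate 2 in 2i+LIF. The sizes stayed between 0.92 and 1.26 for Axin2. Over all genes tested, the 279 calls of this test became 39 with the replicate number as a block. The calls of this test given below for Shisa2, Cdx2, Id2, Tfcp2l1 and Esrrb were not followed when samples were left out.

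Set against wild-type ESCs in 2i+LIF, Sp5 was at 10.1% in wild-type and 56.0% in Trincr1-/- ESCs in PD+LIF, and Axin2 at 12.3% and 41.9%. Notum was at 14.2% and 14.9%, and Apcdd1 at 65.2% and 69.9%. Tnfrsf19 was at 52.9% in wild-type and at 138% in Trincr1-/- ESCs, so its level in Trincr1-/- ESCs without CHIR99021 was above that of wild-type ESCs with it.

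**Figure D4:**
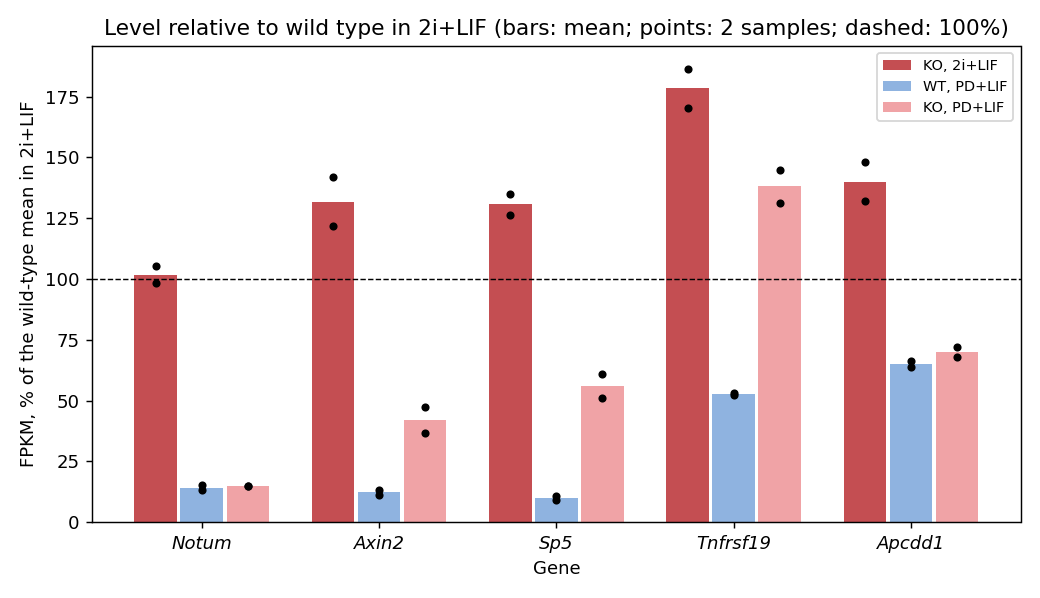
FPKM of the 5 Wnt targets that were lower in PD+LIF, as a percentage of the wild-type mean in 2i+LIF (dashed line at 100%), with bars for group means and points for the 2 samples. In PD+LIF the bars of the 2 genotypes are level for Notum (14.2% and 14.9%) and apart for Sp5 (10.1% and 56.0%).

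The profile of Axin2 over the 8 samples was compared with those of 3513 genes that had a mean of at least 1 FPKM and a range of at least 1 on the log2(FPKM + 1) scale. The highest Pearson correlations were those of Ror2 (0.992), a receptor tyrosine kinase for Wnt5a, Ttn (0.989), E130012A19Rik (0.987), Serpinb9b (0.986) and Alg2 (0.981). Ror2 was at 8.72 ± 0.0103 and 9.77 ± 0.956 FPKM in 2i+LIF (wild type first, then Trincr1-/-) and at 3.57 ± 0.0575 and 6.24 ± 0.101 FPKM in PD+LIF (SD, n = 2 each). Of the other Wnt targets, Sp5 stood at rank 14 with r = 0.974. Notum (0.891) stood at rank 258 and Tnfrsf19 (0.801) at rank 547, so many other genes followed Axin2 more closely. Apcdd1 (0.867), Dkk1 (0.694) and Rnf43 (-0.22) were not among the genes ranked. Lef1 (-0.42) and Nkd1 (-0.60) were also below 0. The 8 points fall into 4 groups, so these values describe the order of the groups and carry no test.

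Beyond these 10 genes, lists of the pathway held 100 more genes, of which 78 were tested. In wild-type ESCs 33 were higher and 18 lower in PD+LIF (30.9% and 21.3% of all genes tested), and in Trincr1-/- ESCs 39 were higher and 19 lower (29.6% and 20.3% of all genes). After quantile normalization these counts were 26 and 22 in wild-type and 33 and 22 in Trincr1-/- ESCs. Between genotypes, 1 was higher and 1 lower in Trincr1-/- ESCs in 2i+LIF (0.35% and 0.855% of all genes), and 15 were higher and 8 lower in PD+LIF (6.29% and 5.77%). These shares are the background for the counts of each list.

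Of 21 ligand and secretion genes, 11 were tested, and after withdrawal 7 were higher and 2 lower in wild-type ESCs (6 and 4 after quantile normalization). The 2 lower ones were Wnt5b, from 5.67 ± 0.203 to 0.456 ± 0.115 FPKM, and Porcn, the enzyme that attaches the lipid to Wnt ligands, from 4.57 ± 1.10 to 0.242 ± 0.197 FPKM (SD, n = 2 each). Wls, which carries Wnt ligands to the cell surface, rose from 3.87 ± 0.105 to 11.4 ± 1.17 FPKM. In PD+LIF, Wls was at 20.9 ± 0.622 FPKM in Trincr1-/- ESCs (limma adjusted p = 0.00423), and Wnt6 and Wnt1 were also higher, while Wnt5a was lower.

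Of 12 receptors, all tested, Fzd2 rose from 2.51 ± 0.175 to 14.8 ± 1.40 FPKM in wild-type ESCs and was at 28.4 ± 1.47 FPKM in Trincr1-/- ESCs in PD+LIF (limma adjusted p = 0.00518 between genotypes), the 1 receptor that differed between genotypes there. Fzd7 rose and Fzd10 and Fzd5 fell in both genotypes after withdrawal. Of the genes of the R-spondin axis (ligands, receptors and ligases), 3 of 7 were tested. Znrf3, a ligase related to Rnf43, was lower in PD+LIF in both genotypes. Lgr4 was lower in PD+LIF in wild-type ESCs, and in PD+LIF it was higher in Trincr1-/- than in wild-type ESCs. Rspo1 was higher after withdrawal in Trincr1-/- ESCs.

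Of 14 inhibitors, 9 were tested, and 4 rose and 1 fell after withdrawal in wild-type ESCs. Shisa2, which traps Frizzled inside the cell, was at 0.845 ± 0.121 and 6.70 ± 0.00262 FPKM in the wild type in 2i+LIF and PD+LIF and at 14.0 ± 0.682 FPKM in Trincr1-/- ESCs in PD+LIF (limma adjusted p = 0.0037 between genotypes). Its genotype effect was called as different between media (1.25, limma adjusted p = 0.0244). The secreted inhibitor Sfrp1 was the most abundant, at 57.8 ± 1.70 FPKM in 2i+LIF and 36.9 ± 0.594 FPKM in PD+LIF in wild-type ESCs. Sfrp1 gave no call between genotypes.

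Of 25 intracellular components, all tested, 14 rose and 2 fell after withdrawal in wild-type ESCs (10 and 2 after quantile normalization). In PD+LIF, 3 were higher in Trincr1-/- ESCs (Dvl3, Tcf7l1 and Bcl9l) and 2 lower (Cdh1 and Tcf7). Bcl9l, a coactivator of β-catenin, was at 9.19 ± 0.336 FPKM in the wild-type group and 13.8 ± 0.0792 FPKM in the Trincr1-/- group.

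Of 18 further genes reported as Wnt targets, 15 were tested, and 6 were lower and 3 higher in wild-type ESCs after withdrawal, beside 21.3% and 30.9% of all genes. Cdx1, a caudal homeobox factor, fell from 16.2 ± 1.95 to 0.111 ± 0.157 FPKM in wild-type ESCs and from 17.0 ± 1.88 to 0.0277 ± 0.0392 FPKM in Trincr1-/- ESCs, with a genotype effect that was not called as different between media (-0.17, limma adjusted p = 0.72). T (Brachyury) fell in both genotypes, and was at 0.112 ± 0.104 and 0.411 ± 0.119 FPKM in PD+LIF without passing the test between genotypes (limma adjusted p = 0.19). Cdx2, a second caudal factor, was the 1 gene of the list that was called between genotypes in 2i+LIF, with 0.746 FPKM in the wild type against 3.02 FPKM without Trincr1 (limma adjusted p = 0.012). With only the 4 samples in 2i+LIF fitted, no gene was called between genotypes there, so this call was lost. Cdx2 fell after withdrawal in both genotypes, and its genotype effect differed between media in the direction opposite to that of Axin2 and Sp5 (-1.11, limma adjusted p = 0.043). Msx1 and Id2 were higher in PD+LIF than in 2i+LIF in both genotypes. In PD+LIF both were higher in Trincr1-/- than in wild-type ESCs, by 1.27 (limma adjusted p = 0.00824) and 0.77 (limma adjusted p = 0.0498) on the log2(FPKM + 1) scale. For Id2 the genotype effect was called as different between media (1.58, limma adjusted p = 0.0456). In 2i+LIF it was at 1.92 FPKM in the wild type against 0.691 FPKM without Trincr1 (-0.81, limma adjusted p = 0.129). The calls of Cdx2 and Id2 for a difference between media were close to the threshold and were not followed when samples were left out. With upper quartile scaling, 4 in place of 5 genes of this list were higher in Trincr1-/- ESCs in PD+LIF. T is also on the list of 6 primitive streak markers, whose sum was 8.95 to 9.67 FPKM in 2i+LIF and 3.31 to 4.09 FPKM in PD+LIF, and the part of these cells in the result was not tested.

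Of 5 naive pluripotency genes that Tcf7l1 represses, 4 fell in wild-type and 5 in Trincr1-/- ESCs after withdrawal. The remaining 1, Klf2, rose in wild-type (0.28, limma adjusted p = 0.0157) and fell in Trincr1-/- ESCs (-0.29, limma adjusted p = 0.0155). The loss of Trincr1 went with lower levels of 4 in PD+LIF. Tfcp2l1 was at 102 ± 2.23 FPKM in wild-type ESCs in 2i+LIF, 22.8 ± 1.93 in PD+LIF and 13.7 ± 0.832 in Trincr1-/- ESCs in PD+LIF. Esrrb was at 165 ± 2.03, 109 ± 0.0573 and 73.2 ± 6.58 FPKM. Both also had a genotype effect called as different between media, in the direction opposite to that of Axin2 and Sp5 (-0.75, limma adjusted p = 0.0277, and -0.67, limma adjusted p = 0.0267). In the same samples, markers of other cell types moved too. The sums of 5 trophoblast markers were 27.1 to 31.2 FPKM in 2i+LIF, 114 to 117 in wild-type and 184 in both samples of Trincr1-/- ESCs in PD+LIF, and those of 5 neural markers 6.79 to 8.24, 27.9 to 30.4 and 37.9 to 38.8 FPKM. Of the trophoblast sum in PD+LIF, Krt8 made up 66.9 FPKM in the wild type and 144 FPKM without Trincr1. Tfap2c was at 45.6 and 36.4 FPKM there, and Cdx2 was lower in PD+LIF than in 2i+LIF in both genotypes. Their part in the results was not tested.

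**Figure D5:**
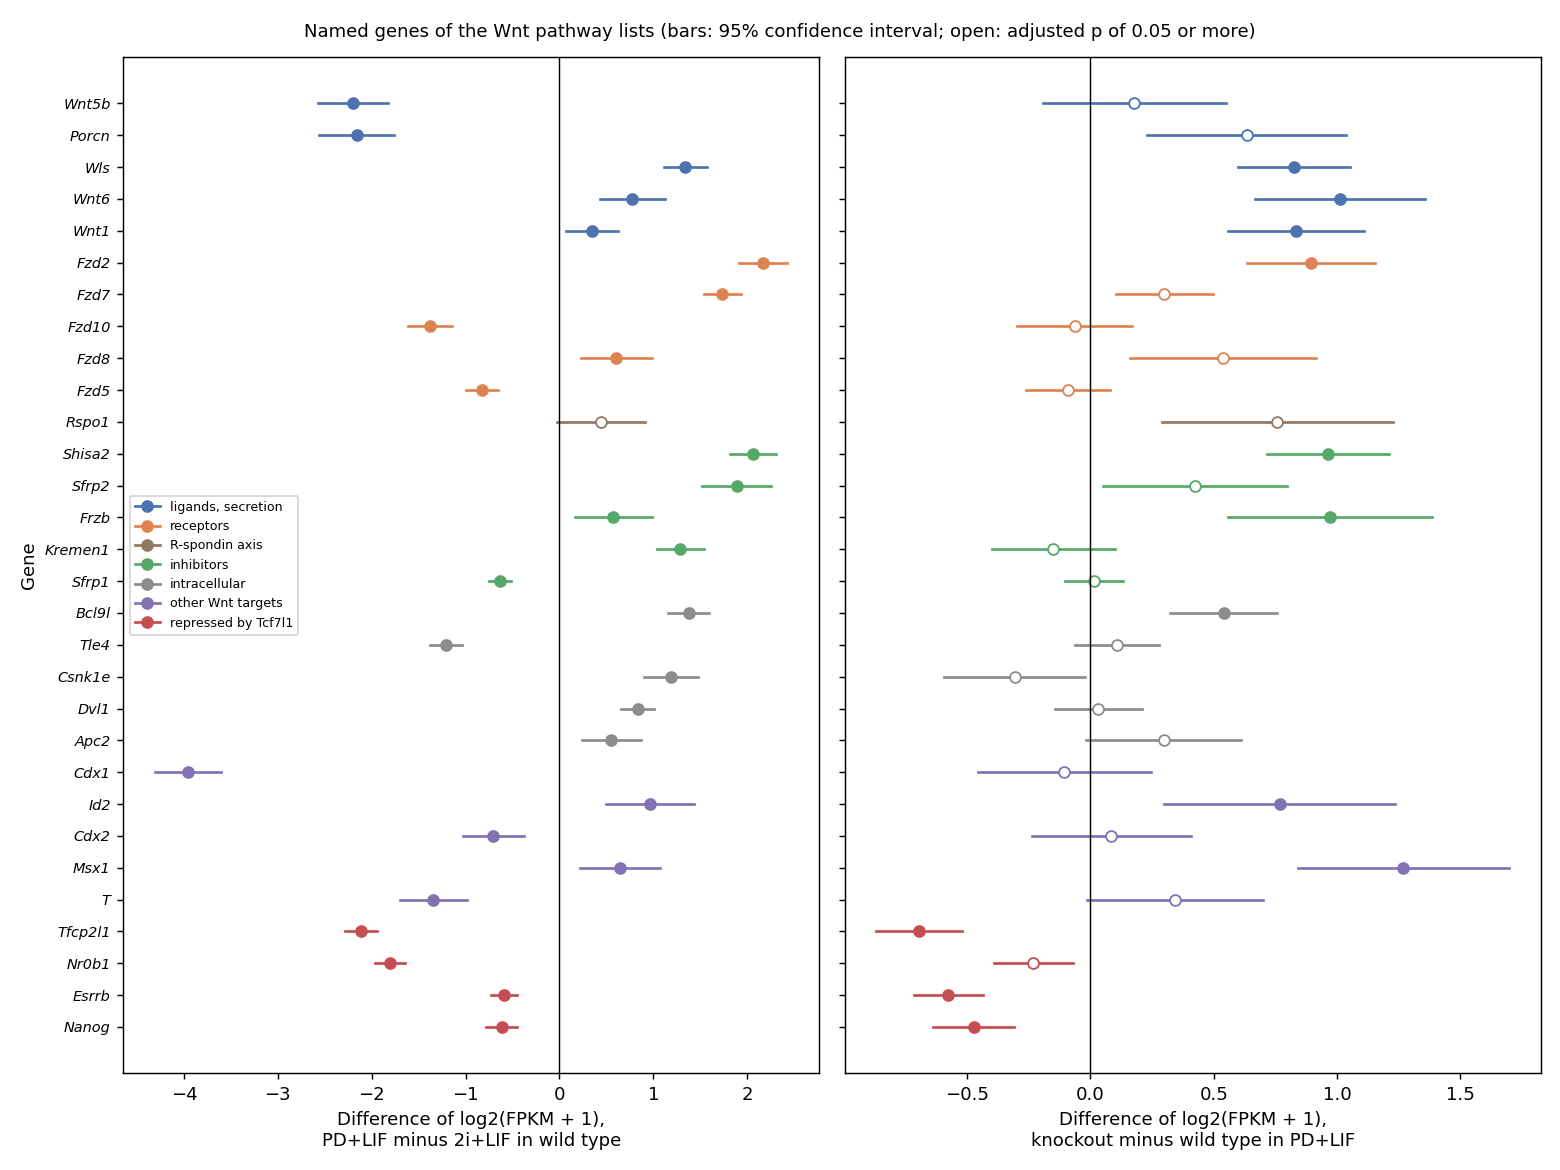
Difference of log2(FPKM + 1) with its 95% confidence interval for the named genes of the pathway lists, for withdrawal of CHIR99021 in wild-type ESCs (left) and for Trincr1-/- against wild-type ESCs in PD+LIF (right), with colors for the lists and open points where the adjusted p-value was 0.05 or more. Cdx1 lies farthest to the left after withdrawal (-3.96), and the 4 plotted genes repressed by Tcf7l1 lie left of 0 in both panels. Klf2, the other gene of that list, is not plotted since its differences were under 0.5 in these comparisons.

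The pulldown of FLAG-tagged TRIM71, from ESCs overexpressing it, gave a further readout of the Wnt targets in 2i+LIF. Input and pulldown were sequenced in replicate but are given as 1 pooled value per transcript, so their spread is not known. An empty-vector pulldown was also sequenced and has no values of its own there. Of the 10 genes, 6 had a row, and all 6 were listed at 0 in the pulldown. Their input was 9.7 FPKM for Notum, 6.8 for Axin2, 1.9 for Apcdd1, 1.7 for Tnfrsf19, 1.0 for Nkd1 and 0.3 for Rnf43. Of all 14054 transcripts, 60.2% were listed at 0. Among transcripts within 1.5 fold of the input of Axin2 the share at 0 was 59.6%, and for Notum it was 52.9%, so a value of 0 was common at this depth. Trincr1 itself was at 2.6 FPKM in the input and 80.6 in the pulldown. Sp5, Lef1, Dkk1 and Lgr5 were not analysed here.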

How the data were processed

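Poly(A) RNA-seq of 8 samples was analysed, and the pulldown of TRIM71 was used as a further readout. The authors aligned the reads with STAR (version 2.5.0) and quantified normalized FPKM with Cufflinks (version 2.2.1), and deposited 1 table of FPKM per gene and sample. The labels and methods name mm9, but start and end of 76.9% of 13802 genes lie within 1000 bases of RefSeq on GRCm38.p6, against 5.16% of 14673 genes on NCBIM37, so coordinates are those of GRCm38. The pulldown table holds pooled FPKM of input and pulldown, the signal the authors scaled to the average of all transcripts, and their own enrichment fold, which was not used.

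Of 41260 rows, 56 repeat entries were dropped. Genes with a mean above 0.2 FPKM (15430) were tested with limma 3.58.1 (R 4.3.3) on log2(FPKM + 1), with 4 group means in 1 fit (4 residual degrees of freedom), a variance trend and Benjamini-Hochberg adjustment over all genes at 0.05, so low genes have compressed differences. Groups came from the sample titles. On a simulated table of 15430 genes for the genotype effect in PD+LIF, 178 of 200 genes changed by 1.5 on the log2 scale were recovered, with 12 false calls. The changed genes were drawn from those with a mean log2(FPKM + 1) above 1, and the noise was normal. Recovery of lower genes, such as Dkk1 and Rnf43, and of smaller differences was not simulated. Fragments were estimated from steps between low FPKM values, of which 86.6% to 89.4% per library lay within 0.1 of a whole fragment. Such estimates cover counting error only. The members and lists were chosen with earlier results of these data known. Genes named by rule are the members, at most 5 genes per list with the largest differences (at least 0.5) past the threshold, and the 5 profiles most like Axin2. Dvl3, Tcf7l1, Cdh1, Tcf7, Wnt5a, Znrf3, Lgr4, Klf2 and the cell type markers were named after their values were seen. T, Cdx2, Nanog, Esrrb, Tcf7 and Znrf3 stand on more than 1 list. Alternatives were other pseudocounts, filters, scalings, variance models, a replicate block and leaving out samples.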

Additional observations from a re-analysis of the deposited data

Results flagged for a closer look

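For Sp5 and Axin2 the genotype effect differed between the media by the test of the difference itself. In PD+LIF minus 2i+LIF, the difference between Trincr1-/- and wild-type ESCs was larger by 1.56 on the log2(FPKM + 1) scale for Sp5 and by 1.09 for Axin2. All 4 Trincr1-/- samples of each gene were above the wild-type samples of the same medium. Neither call held with the replicate number as a block or in most fits without 1 sample.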

How the results depend on the processing

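No called Wnt target reversed under any alternative. Targets lower in PD+LIF in wild-type ESCs went from 5 to 6 with quantile normalization (Dkk1 gained), to 4 with only the 4 samples compared (Apcdd1 lost) and were 4 to 5 when 1 sample was left out. In Trincr1-/- ESCs they became 4 with only the 4 samples compared (Tnfrsf19 lost) and were 4 to 5 with 1 sample left out. In Trincr1-/- ESCs the number of Wnt targets higher in PD+LIF went from 2 to 1 with quantile normalization and when only the 4 samples compared were fitted, and was 1 to 2 when 1 sample was left out, being 1 without Trincr1-/- replicate 1 or 2 in 2i+LIF or replicate 1 in PD+LIF. In 2i+LIF the single target higher in Trincr1-/- ESCs became 0 with only the 4 samples compared and 0 whichever sample was left out. All genes called there went from 186 to 122 without a filter, 0 with the 4 samples compared and 40 to 113 with 1 sample left out. In PD+LIF the 4 targets became 3 with only the 4 samples compared (Nkd1 lost) and were 3 to 5 with 1 sample left out, and all genes called went from 1861 to 316 with the 4 samples compared and to 335 to 1519 with 1 sample left out (335 to 764 without 1 of the 4 samples in PD+LIF). For the difference of the genotype effect between media, the 2 targets became 0 without a filter, 1 without a variance trend and 0 to 1 with 1 sample left out, where all 279 calls became 138, 88 and 3 to 34. With pseudocounts of 0.1 and 0.5, a mean above 1 FPKM, both scalings and the robust trend, both targets stayed called. The cause of these changes in the counts was not tested.

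Same-numbered samples did not deviate together (r of replicate differences -0.0539 to 0.00634 over 15430 genes). Such a correlation over all genes cannot show whether samples with the same number were handled together, so pairing stays unknown. With a replicate block, Wnt targets higher in Trincr1-/- ESCs in 2i+LIF went from 1 to 0, those with a different genotype effect between media from 2 to 0, and all genes called in these comparisons were 111 and 39. The block left the 4 targets in PD+LIF and the counts between media as they were.

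By the rule of ratios, the targets higher in PD+LIF in wild-type ESCs were 2 with an average of at least 0.5 FPKM, 3 with no minimum and 1 to 2 with 1 sample left out (2 without wild-type replicate 1 in PD+LIF). In Trincr1-/- ESCs they were 2 with 0.5 FPKM, 2 with no minimum and 2 with a ratio above 1.5. Targets lower in wild-type ESCs were 4 with no minimum and 5 with a ratio above 1.5. In Trincr1-/- ESCs the 4 lower targets were 3 without their replicate 2 in 2i+LIF or replicate 1 in PD+LIF. Targets higher in Trincr1-/- ESCs in PD+LIF went from 4 to 5 with 0.5 FPKM or a ratio above 1.5 and to 6 with no minimum. Targets higher in Trincr1-/- ESCs in 2i+LIF were 1 with no minimum, 2 with a ratio above 1.5 and 0 to 1 with 1 sample left out (1 without wild-type replicate 2 in 2i+LIF). All 6 Wnt targets with a row in the pulldown are listed at 0 there, so no alternative could have called them enriched. Depth limits Lgr5, Dkk1, Rnf43 and, in 2i+LIF, Nkd1, where a library can hold few fragments.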

Other observations

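Markers of extraembryonic endoderm and of fibroblasts were also measured in the samples that gave the Wnt target values. The sum of 6 primitive endoderm markers was 1.04 to 1.44 FPKM in 2i+LIF, 4.31 to 5.05 in wild-type and 5.58 to 5.89 in Trincr1-/- ESCs in PD+LIF. Of these, 2 reached 1 FPKM, Gata4 and Dab2, and both were higher in PD+LIF in both genotypes. Among the others, Gata6 and Pdgfra had higher means in PD+LIF in both genotypes and Sox17 lower ones. Sox7 had a lower mean in PD+LIF in the wild type and a higher one in Trincr1-/- ESCs. The sum of 5 fibroblast markers was 188 FPKM in wild-type and 244 to 257 in Trincr1-/- ESCs in 2i+LIF, and 76.1 to 100.2 and 136 to 157 FPKM in PD+LIF, nearly all of it Vim. The sum fell between media through Vim, whereas Col1a1 and Thy1 were higher in PD+LIF in both genotypes and Col1a2 in Trincr1-/- ESCs. Dcn was listed at 0 in all but the Trincr1-/- ESCs in PD+LIF, where its mean was 0.0269 FPKM. Their part in the results for the Wnt targets was not tested.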
